A study of Mus musculus with 9 samples.

Results

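The genes examined were 10 interleukins, colony-stimulating factors and related signals, Il6, Il6st, Lif, Il11, Csf1, Csf2, Il33, Il15, Il18 and Tnf, chosen by symbol from the 36410 genes of an RNA-seq count table. The libraries came from immortalized mouse striatal cells on a C57/BL6 background with a knock-in in exon 1 of the huntingtin gene: STHdhQ7/Q7 (control, 7 glutamines encoded by both alleles), STHdhQ7/Q111 (HD-het, 7 and 111) and STHdhQ111/Q111 (HD-homo, 111 on both). Cells of each line were derived from embryos, no treatment is named, and 3 replicate libraries were sequenced per line. Each genotype is 1 line, so that an effect of genotype cannot be told apart from a difference between lines. The labels do not say whether the libraries of a line came from separate cultures, so that p-values measure only the spread between these libraries.

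Interleukins and colony-stimulating factors are secreted proteins through which cells regulate inflammation, blood cell formation and the survival of their neighbours. LIF, IL-6 and IL-11 each bind a receptor of their own and signal through the shared subunit gp130, encoded by Il6st, to the transcription factor STAT3. CSF1 maintains macrophages and, in the brain, microglia, while the other members act on myeloid cells, lymphocytes or mast cells. IL-33 and IL-18 belong to the IL-1 family and are made without a classical secretion signal. In the brain, glia and, after injury, invading immune cells are known sources of such factors.

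Expression was deposited as the number of reads per gene, with 29507665 to 41197931 reads per library, and is given as counts and as CPM (counts per megaread, normalized by edgeR's TMM method, mean ± SD, n = 3). A count of 3 was taken as the detection floor, which equals 0.0710 to 0.101 CPM and covers counting error only. Tnf was under the floor in every library. Il6 was at the floor in all control libraries, and Il15 was at or under it in control replicates 1 and 2 and in HD-het replicate 3. The other 7 members were above it in every library. Of the 10 members, 9 passed the filter on low counts, Il6 through the HD-het line and Il15 through the HD-homo line. HD-homo replicates were the least alike. In pairs of replicates, their variance was 22.7 to 40.3 times that of counting alone. It was 6.44 to 21.4 times in HD-het pairs and 2.23 to 11.8 times in control pairs.

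Marker genes of cell types were read beside the members, and single markers were picked after their values were seen. Of 12 macrophage and microglia markers, 5 were at or under the floor in every library, among them Aif1, Adgre1 and Tyrobp at 0 reads, and Ptprc (CD45) had at most 19 reads. Others of that list were expressed. Tmem119, a gene also expressed by osteoblasts, was highest in HD-het cells, at 45.9 ± 4.89 CPM against 13.1 ± 1.91 in control and 11.5 ± 0.779 in HD-homo cells, Cd14 was highest in HD-homo cells, at 10 ± 1.12 CPM against 4.22 ± 0.764 in control and 2.17 ± 0.424 in HD-het cells, and Cd68 had 55 to 160 reads. The list summed to 18.9 to 21.8 CPM in control, 47.3 to 59.8 in HD-het and 22.2 to 25.8 in HD-homo libraries. Of 12 lymphocyte and mast cell markers, 10 were at or under the floor and 7 at 0. Of 12 striatal projection neuron markers, Drd1 had 0 reads, Drd2 no more than 1 and Ppp1r1b (DARPP-32) no more than 17, while Foxp1 was at 93.8 CPM in control, 114 in HD-het and 168 in HD-homo cells and Pde10a and Penk had up to 189 and 116 reads. That list summed to 91.9 to 103 CPM in control, 119.9 to 122 in HD-het and 163 to 185 in HD-homo libraries. Of 8 neuronal markers, Rbfox3, Snap25, Syt1 and Dcx were at or under the floor, while Tubb3 and Map2 were expressed in all lines, at 42.4 and 62.9 CPM in control cells. Stmn2 fell from 53.7 ± 6.63 CPM in control to 2.71 ± 0.253 in HD-het and 2.75 ± 0.575 in HD-homo cells, and Gap43 from 3.14 ± 0.862 to 0.358 ± 0.201 and 0.351 ± 0.0893. Of 10 astrocyte and oligodendrocyte markers, 4 were at or under the floor, and the list summed to 3.55 to 3.61 CPM in control, 2.40 to 2.90 in HD-het and 14.3 to 20.6 in HD-homo libraries. Slc1a3 was the highest of them in HD-homo cells, at 14.6 CPM against 2.24 in control and 0.644 in HD-het cells. Mbp also rose, to 1.23 CPM from 0.115 in control. Gfap and Aldh1l1 had up to 6 and 7 reads in control and no more than 2 in HD-homo libraries. The 11 fibroblast and mesenchymal markers summed to 10548 to 11411 CPM in control, 19546 to 21044 in HD-het and 10699 to 11680 in HD-homo libraries. Within that list Pdgfra was at 5.21 CPM in control, 4.37 in HD-het and 307 in HD-homo cells, and Col1a2 at 73.4, 3.15 and 1494 CPM. Others were lowest in HD-homo cells, with Acta2 at 2271, 5290 and 91.8 CPM and Tagln at 272, 1790 and 21.6 CPM. Col1a1 was highest in HD-het cells, at 2465, 7097 and 4234 CPM. Markers of several cell types thus moved between the lines along with the members, and their part in the results was not tested.

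The sequences upstream of 4 member genes are shown because Lif, Il6, Il11 and Csf1 differed between the lines and because each window holds a match to NF-kappaB or AP-1, factors known to act on cytokine genes. Each is the 250 bases before a RefSeq transcription start on GRCm38.p6, read 5′ to 3′ on the gene's own strand, and capitals mark the match. The windows are chr11:4257318-4257567 (+) for Lif, chr5:30012864-30013113 (+) for Il6, chr3:107760470-107760719 (−) for Csf1 and chr7:4778142-4778391 (−) for Il11.
Lif: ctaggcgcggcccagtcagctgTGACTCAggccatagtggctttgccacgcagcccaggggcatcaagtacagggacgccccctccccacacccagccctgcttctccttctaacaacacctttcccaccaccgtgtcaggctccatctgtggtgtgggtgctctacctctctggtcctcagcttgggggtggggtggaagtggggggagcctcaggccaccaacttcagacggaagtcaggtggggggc
Il6: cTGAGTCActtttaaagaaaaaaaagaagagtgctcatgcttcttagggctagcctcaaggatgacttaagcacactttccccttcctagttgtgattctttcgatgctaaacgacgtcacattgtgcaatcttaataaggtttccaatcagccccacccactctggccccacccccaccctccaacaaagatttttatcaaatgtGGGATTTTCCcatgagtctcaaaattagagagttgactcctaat
Csf1: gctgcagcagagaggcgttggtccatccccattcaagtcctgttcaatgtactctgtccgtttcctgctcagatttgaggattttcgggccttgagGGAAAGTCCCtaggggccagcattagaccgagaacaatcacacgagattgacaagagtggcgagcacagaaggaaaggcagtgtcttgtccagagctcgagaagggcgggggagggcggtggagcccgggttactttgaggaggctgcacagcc
Il11: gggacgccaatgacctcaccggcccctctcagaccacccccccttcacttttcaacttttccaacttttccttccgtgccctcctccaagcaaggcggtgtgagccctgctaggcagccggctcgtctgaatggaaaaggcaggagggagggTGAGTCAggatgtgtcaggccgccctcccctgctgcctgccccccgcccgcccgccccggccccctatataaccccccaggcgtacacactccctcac
Positions count back from the base before the start, at -1. The AP-1 motif TGANTCA stood at -228 to -222 in Lif, at -249 to -243 in Il6 and at -98 to -92 in Il11. The NF-kappaB motif stood at -44 to -35 in Il6 and at -154 to -145 in Csf1. On either strand, NF-kappaB was matched in 3.9% and AP-1 in 6.75% of 32851 mouse windows of this length. The STAT motif TTCNNNGAA (7.02% of windows) and the interferon-stimulated response element, searched as GAAA followed by any 2 bases and GAAA (2.98%), had no match in any member window. The box TATAAA, searched on the gene's strand (7.59% of windows), was found upstream of Tnf and of both starts of Il33. No motif was found for Il6st, Il18, Csf2 or the other start of Il11. Of the 10 members, 9 had a window, with 11 starts in all. A match describes letters and not binding.

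Lif, a ligand of the LIFR and gp130 pair that supports stem cells and responds to nerve injury, was higher in the HD-het line than in the control line and highest in the HD-homo line. Counts were 606, 676 and 480 in the control libraries, 3644, 2894 and 1774 in HD-het and 4503, 11678 and 5036 in HD-homo. No line overlapped another, and HD-homo replicate 2 was the highest library. In RNA from whole cultures, more expressing cells and more RNA per cell cannot be told apart. Levels were 18.4 ± 1.98 CPM in control, 81.4 ± 25.5 in HD-het and 188 ± 76.7 in HD-homo cells. Against control cells, Lif was higher by a log2 fold change of 2.14 (SE 0.29, edgeR adjusted p = 6.1e-05) in HD-het and of 3.35 (SE 0.30, edgeR adjusted p = 2.4e-06) in HD-homo cells. Between the HD lines it was 1.21 higher in HD-homo cells (SE 0.27, edgeR adjusted p = 0.0018), and 0.83 (edgeR adjusted p = 0.0036) without HD-homo replicate 2. The gene lies on chromosome 11 from 4257557 to 4272514 (GRCm38, plus strand), with 4 exons in its longest transcript.

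Il6, the acute-phase and fever cytokine, was barely detected in control cells and highest in HD-het cells. Each control library had 3 reads, the HD-het libraries had 31, 34 and 28, and the HD-homo libraries had 5, 20 and 22. The lines did not overlap, although HD-homo replicate 1 was close to the floor. The summed counts, scaled to depth, were 9.69 times those of control cells in HD-het (95% counting interval 4.89 to 21.9) and 4.59 times in HD-homo (2.23 to 10.7). As every control library was at the floor, the size of these ratios is uncertain. The edgeR adjusted p was 1.1e-04 for HD-het and 0.0050 for HD-homo against control. As Il6 passed the filter through the HD-het line, it had to be higher there. Il6 was the only tested member called lower in the homozygous than in the heterozygous HD line, by a log2 fold change of -1.08 (SE 0.35, edgeR adjusted p = 0.016). That difference was -0.71 (edgeR adjusted p = 0.027) without HD-homo replicate 1 and was no longer called without HD-het replicate 2 (edgeR adjusted p = 0.054). It lies on chromosome 5 from 30013114 to 30019981 (plus strand).

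Il11, a gp130 cytokine known from bone and from fibrosis, was higher in the HD-homo line than in the control line. Counts were 67, 83 and 62 in control, 140, 128 and 79 in HD-het and 140, 136 and 223 in HD-homo libraries. HD-homo replicate 3 was the highest, and HD-het replicate 3 fell within the control range, at 2.37 against 2.08 to 2.47 CPM. Against control cells, the HD-homo line was higher by 1.08 (log2; SE 0.27, edgeR adjusted p = 0.0057). The HD-het line was higher by 0.62 (95% interval 0.00 to 1.24, edgeR adjusted p = 0.073), which was not past the threshold. It was called with only those lines compared (edgeR adjusted p = 0.020), without HD-het replicate 3 (0.82, edgeR adjusted p = 0.023) and without HD-homo replicate 2 or 3 (edgeR adjusted p = 0.036 and 0.023). The HD lines overlapped and differed by 0.46 (SE 0.26, edgeR adjusted p = 0.13). This was 0.13 without HD-homo replicate 3, 0.26 without HD-het replicate 3 and 0.69 without HD-homo replicate 2, the last with an edgeR adjusted p of 0.023. Il11 lies on chromosome 7 from 4772373 to 4782859 (minus strand).

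Il6st, the subunit that all of these ligands share, rose in the HD-homo line against both other lines. Counts were 5693, 5843 and 4929 in control, 6006, 5320 and 4871 in HD-het and 9823, 16484 and 10059 in HD-homo libraries. Levels were 172 ± 5.34, 159 ± 12 and 330.5 ± 51.8 CPM. The 3 HD-homo libraries, from 300.0 to 390.3 CPM, lay above all 6 others. Its log2 fold change in the HD-homo line was 0.94 against control cells (SE 0.10, edgeR adjusted p = 1e-05) and 1.05 against HD-het cells (SE 0.10, edgeR adjusted p = 2.5e-06). Control and HD-het cells differed by -0.12 (95% interval -0.33 to 0.10, edgeR adjusted p = 0.32). Without HD-homo replicate 2, the difference from control was 0.80 (edgeR adjusted p = 2.2e-06). Il6st lies on chromosome 13 from 112464070 to 112510086 (plus strand), with 17 exons.

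**Figure D1:**
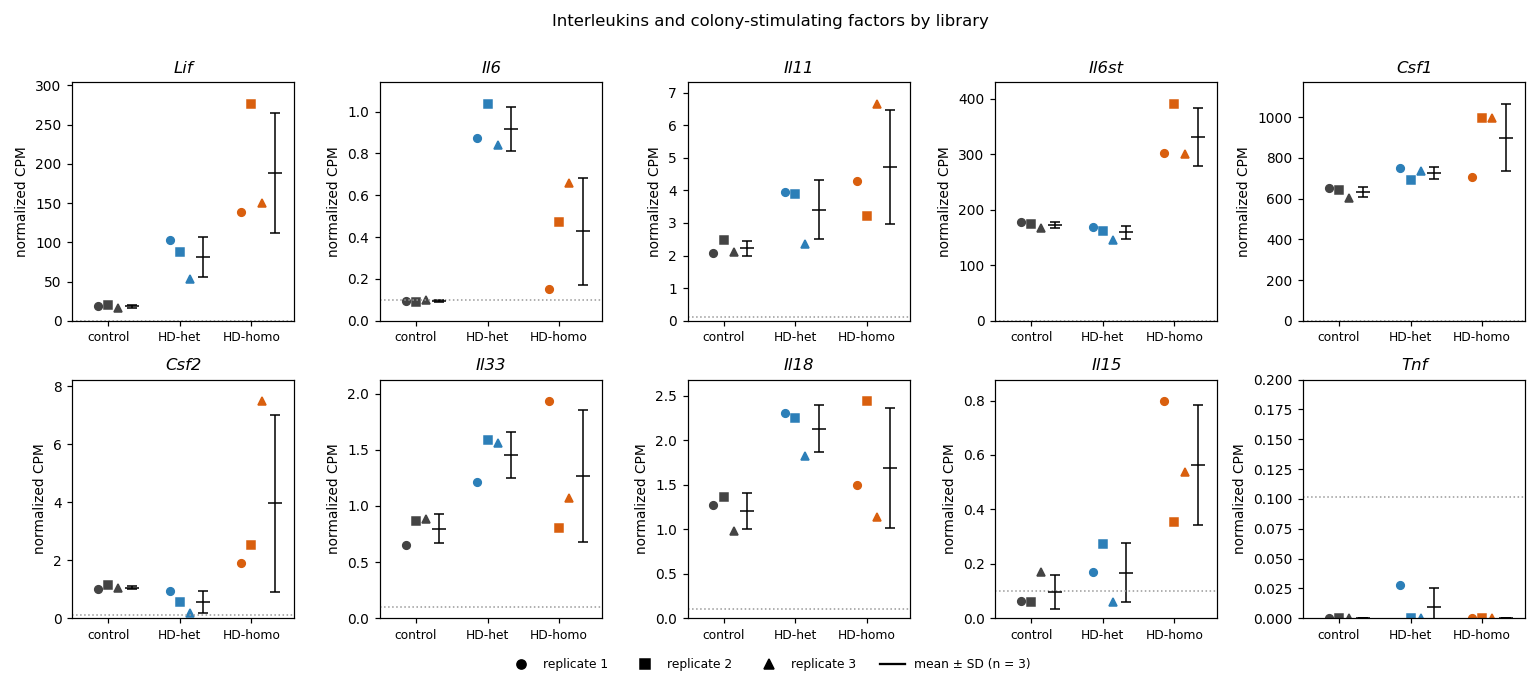
Normalized CPM of the 10 genes in each library of the control, HD-het and HD-homo lines, on linear axes that start at 0. Symbols are replicates, bars are the mean ± SD of 3 libraries and the dotted line is the detection floor of 0.101 CPM, the highest of the libraries. Lif is separated in all 3 lines, Il6st is raised in HD-homo cells, and Tnf lies under the floor.

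The ligand-specific receptors of these cytokines differed in direction. Lifr, the receptor of LIF, was lower in HD-het (3.60 ± 0.536 CPM) and higher in HD-homo cells (14.8 ± 2.06) than in control cells (6.48 ± 0.494). Osmr, which pairs with gp130 for oncostatin M, had the same order, with 22.2 ± 5.85 CPM in control, 9.62 ± 1.92 in HD-het and 94.9 ± 10.1 in HD-homo cells. For both, every pair of lines differed past the threshold, with log2 fold changes of 2.04 for Lifr (edgeR adjusted p = 2e-07) and 3.30 for Osmr (edgeR adjusted p = 5.7e-08) between HD-homo and HD-het cells. Il6ra, the receptor of IL-6, went the other way. It fell from 20.8 ± 1.41 CPM in control to 16.2 ± 1.81 in HD-het and 11.2 ± 1.45 in HD-homo cells, a difference of -0.89 on the log2 scale between the last and the first (edgeR adjusted p = 4.5e-05). Il11ra1 was at 0.805 ± 0.0593, 0.442 ± 0.0721 and 1.71 ± 0.368 CPM, but shares sequence with a near-identical copy, so that its level is uncertain. Il6 was thus higher, and its own receptor lower, in both HD lines. Lif was also higher in both HD lines, while Lifr was lower in the HD-het and higher in the HD-homo line. The call of Il6ra in HD-het cells was lost without control replicate 3 or HD-het replicate 2 (edgeR adjusted p up to 0.059).

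Of 6 other ligands that signal through gp130, 3 were tested. Clcf1 (cardiotrophin-like cytokine) was lower in HD-het (71.1 ± 2.78) and higher in HD-homo cells (107 ± 12.8) than in control cells (84.7 ± 8.92), and the former call was lost without control replicate 1 or 2 or any HD-het library (edgeR adjusted p up to 0.15), and with a replicate block (edgeR adjusted p = 0.053). Ctf1 (cardiotrophin) fell in HD-homo cells, from 3.14 ± 0.333 to 0.696 ± 0.133 CPM. Cntf fell in the HD-het line, to 2.01 ± 0.303 from 3.08 ± 0.450 CPM in the control line. Osm had 0 reads in every library, and Il27 and Ebi3 had at most 4 in any. In HD-het cells 0 of the 3 were higher and 2 lower than in control cells, where 33.8% of all tested genes were higher and 31.4% lower. In HD-homo cells 1 was higher and 1 lower, where 29.6% of all tested genes were higher and 28.9% lower. With 3 genes, no direction of these ligands as a group can be read from such counts.

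Csf1, the growth factor of macrophages and microglia, was the most abundant member and rose in the HD-homo line. Counts were 20902, 21584 and 17864 in control, 26675, 22758 and 24527 in HD-het and 23113, 42026 and 33397 in HD-homo libraries. Levels were 632 ± 24.6 CPM in control, 727 ± 30.0 in HD-het and 899.9 ± 166 in HD-homo cells. HD-homo replicates 2 and 3 stood near 995 CPM, while replicate 1, at 709 CPM, lay within the HD-het range. Against control, the log2 fold change was 0.51 in the HD-homo line (SE 0.11, edgeR adjusted p = 0.0023). In HD-het cells it was 0.20 (95% interval -0.04 to 0.45, edgeR adjusted p = 0.13), although the libraries did not overlap. It passed the threshold when HD-homo libraries were left out of the fit, with an edgeR adjusted p of 0.0081. The difference between the HD lines, 0.31 (edgeR adjusted p = 0.028), was lost without HD-homo replicate 2 (0.23, edgeR adjusted p = 0.091) or replicate 3 (0.23, edgeR adjusted p = 0.10). Csf1 lies on chromosome 3 from 107741048 to 107760469 (minus strand), with 9 exons.

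Csf2, which encodes GM-CSF, a growth and activation factor of granulocytes and macrophages, was higher in HD-homo cells than in either other line. Counts were 32, 38 and 31 in control, 33, 18 and 6 in HD-het and 62, 106 and 251 in HD-homo libraries. The HD-homo libraries spread from 1.90 to 7.49 CPM, with replicate 3 far above the rest, and the HD-het libraries from 0.180 to 0.931. Differences on the log2 scale were 1.89 against control (SE 0.52, edgeR adjusted p = 0.0090) and 2.81 against HD-het cells (SE 0.57, edgeR adjusted p = 9.2e-04). Without HD-homo replicate 3, these were 1.06 (edgeR adjusted p = 0.021) and 1.98 (edgeR adjusted p = 6.4e-04). HD-het cells had lower values than control cells in all libraries, but the difference of -0.92 was not called (95% interval -2.35 to 0.51, edgeR adjusted p = 0.23). Without HD-het replicate 1 that difference was -1.53 (edgeR adjusted p = 0.11), and without HD-het replicate 3 it was -0.51 (edgeR adjusted p = 0.52). Csf2 lies on chromosome 11 from 54247271 to 54249667 (minus strand), and its exons overlap those of Gm12223 on the opposite strand, for which the strand setting of the counting is not known.

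The receptors of both factors had few reads. Csf1r, the CSF1 receptor of macrophages, had 13, 22 and 17 reads in control, 27, 19 and 22 in HD-het and 69, 69 and 79 in HD-homo libraries. It was 2.04 ± 0.368 CPM in HD-homo cells, a log2 fold change of 1.89 against control (edgeR adjusted p = 3.8e-05). Its exons also overlap a gene on the opposite strand, Hmgxb3. Il34, the other ligand of this receptor, chosen after its values were seen, went from 0.942 ± 0.245 CPM in control to 0.156 ± 0.0679 in HD-het and 3.66 ± 0.0551 in HD-homo cells. Csf2ra, the ligand-binding chain for GM-CSF, fell in the HD-homo line to 1.58 ± 0.331 CPM from 2.51 ± 0.542 in the control line (log2 fold change -0.65, edgeR adjusted p = 0.016), a call lost without control replicate 1 or HD-homo replicate 1 (edgeR adjusted p up to 0.086). Its signalling partner Csf2rb had at most 2 reads in any library. Csf1 and Csf2 thus stood beside receptor genes with no more than 2.36 and 3.11 CPM in any library for Csf1r and Csf2ra.

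Among 6 other growth factors of blood cells, 5 were tested, with 3 higher and 1 lower in HD-homo cells and 2 higher and 1 lower in HD-het cells, each against control, beside 29.6% higher and 28.9% lower and 33.8% higher and 31.4% lower over all tested genes. Csf3, which encodes G-CSF, was higher in both HD lines, with 0.283 ± 0.0871, 0.733 ± 0.410 and 1.11 ± 0.30 CPM. Tslp had 1 read in each control library, 3 in each HD-het library and 17, 27 and 29 in HD-homo libraries. By mean CPM, HD-homo cells had 21.4 times the control level (95% counting interval 7.04 to 106). As the control libraries were under the floor, the size of that fold is uncertain. Tslp passed the filter only through its reads in HD-homo cells, so it had to be higher there, and the counts of this list are descriptions. Thpo fell in the HD-homo line (0.608 ± 0.295 CPM, against 1.19 ± 0.151 in the control line). The calls of Csf3 in HD-het cells (without control replicate 1 or HD-het replicate 3) and of Thpo (without any control library or HD-homo replicate 3) were lost, with edgeR adjusted p up to 0.10.

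Il33 and Il18, the nuclear alarmin and the inflammasome substrate of the IL-1 family, were higher in the HD-het line than in the control line. Il33 had 21, 29 and 26 reads in control, 43, 52 and 52 in HD-het and 63, 34 and 36 in HD-homo libraries. All HD-het libraries were above the control libraries, while HD-homo replicate 2, at 0.805 CPM, lay inside the control range. Against control, the HD-het line was higher by 0.86 (log2; SE 0.31, edgeR adjusted p = 0.031). Leaving out any control library, HD-het replicate 2 or HD-het replicate 3 ended that call, with edgeR adjusted p up to 0.10. For the HD-homo line the difference was 0.65 (95% interval -0.05 to 1.34, edgeR adjusted p = 0.10), 0.91 (edgeR adjusted p = 0.020) without HD-homo replicate 2 and 0.22 (edgeR adjusted p = 0.48) without HD-homo replicate 1. The HD lines differed by -0.21 (edgeR adjusted p = 0.53) and overlapped. Without HD-homo replicate 1 this was -0.63 (edgeR adjusted p = 0.036), and without HD-homo replicate 2 it was 0.052 (edgeR adjusted p = 0.87).

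Il18 had 41, 46 and 29 reads in control, 82, 74 and 61 in HD-het and 49, 103 and 38 in HD-homo libraries. HD-het libraries, from 1.83 to 2.31 CPM, lay above the control libraries, from 0.980 to 1.37 CPM. HD-homo libraries spanned both, with replicate 2 the highest of all 9. The HD-het line was 0.81 higher than control on the log2 scale (SE 0.27, edgeR adjusted p = 0.021), and it was lost without control replicate 3, HD-het replicate 1 or HD-het replicate 2 (edgeR adjusted p up to 0.077). HD-homo cells differed from control by 0.50 (95% interval -0.10 to 1.1, edgeR adjusted p = 0.14), by 0.72 (edgeR adjusted p = 0.026) without HD-homo replicate 3 and by 0.12 (edgeR adjusted p = 0.69) without HD-homo replicate 2. Against HD-het cells they differed by -0.31 (edgeR adjusted p = 0.29), by -0.69 (edgeR adjusted p = 0.015) without HD-homo replicate 2 and by -0.096 (edgeR adjusted p = 0.72) without HD-homo replicate 3. Il33 lies on chromosome 19 from 29925114 to 29960718 and Il18 on chromosome 9 from 50554827 to 50581840, both on the plus strand.

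The receptor chains of these factors did not share a direction. Il1rl1 (ST2), the receptor of IL-33, was at 787 ± 145 CPM in control, 1113 ± 107 in HD-het and 2475 ± 184 in HD-homo cells, with log2 fold changes against control of 0.50 (edgeR adjusted p = 0.0045) and 1.65 (edgeR adjusted p = 7.8e-07). Its accessory chain Il1rap went from 34.3 ± 1.98 CPM in control to 42.5 ± 1.91 in HD-het and down to 20.6 ± 1.95 in HD-homo cells. Il18rap, the accessory chain for IL-18, fell in both HD lines, from 143 ± 15.4 to 58.2 ± 12.9 and 21.2 ± 5.79 CPM. The binding chain Il18r1 had 5 to 19 reads per library and passed the threshold in no comparison. For IL-18, the accessory chain was thus lower in the HD-het line, in which the ligand was higher.

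Il15, which sustains natural killer cells and memory T cells, was higher in HD-homo cells than in both other lines. Counts were 2, 2 and 5 in control, 6, 9 and 2 in HD-het and 26, 15 and 18 in HD-homo libraries. The HD-homo libraries, at 0.355 to 0.797 CPM, lay above all 6 others, which reached 0.274. By log2 fold change, the HD-homo line was 2.50 above control (SE 0.55, edgeR adjusted p = 0.0023) and 1.70 above the HD-het line (SE 0.48, edgeR adjusted p = 0.0078). As Il15 passed the filter only through the HD-homo line, it had to be higher there. Control and HD-het cells differed by 0.80 (95% interval -0.72 to 2.32, edgeR adjusted p = 0.33), which at these counts is not a detectable difference. Il15ra, which presents IL-15 on the cell surface, had 12, 19 and 6 reads in control, 23, 16 and 25 in HD-het and 206, 281 and 212 in HD-homo libraries. It rose by 4.04 on the log2 scale in HD-homo cells against control (SE 0.24, edgeR adjusted p = 9.1e-08). The signalling chains Il2rb and Il2rg had at most 13 and 10 reads in any library and were not tested. Il15 lies on chromosome 8 from 82331632 to 82403222 (minus strand).

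Tnf, the master inflammatory cytokine of macrophages, was not detected. It had 1 read in HD-het replicate 1 and 0 in the other 8 libraries, which allows at most the floor of 0.0710 to 0.101 CPM per library, and no fold change or test was computed. Its receptors were present. Tnfrsf1a was at 61.5 ± 2.32 CPM in control, 64.9 ± 2.44 in HD-het and 114 ± 6.81 in HD-homo cells, the last 0.89 above control on the log2 scale (edgeR adjusted p = 3.1e-07). Tnfrsf1b rose from 2.04 ± 0.279 CPM in control to 42.0 ± 4.03 in HD-het and 26.9 ± 2.71 in HD-homo cells, log2 fold changes of 4.37 (edgeR adjusted p = 9.9e-10) and 3.73 (edgeR adjusted p = 1e-09). Tnf lies on chromosome 17 from 35199381 to 35202007 (minus strand).

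**Figure D2:**
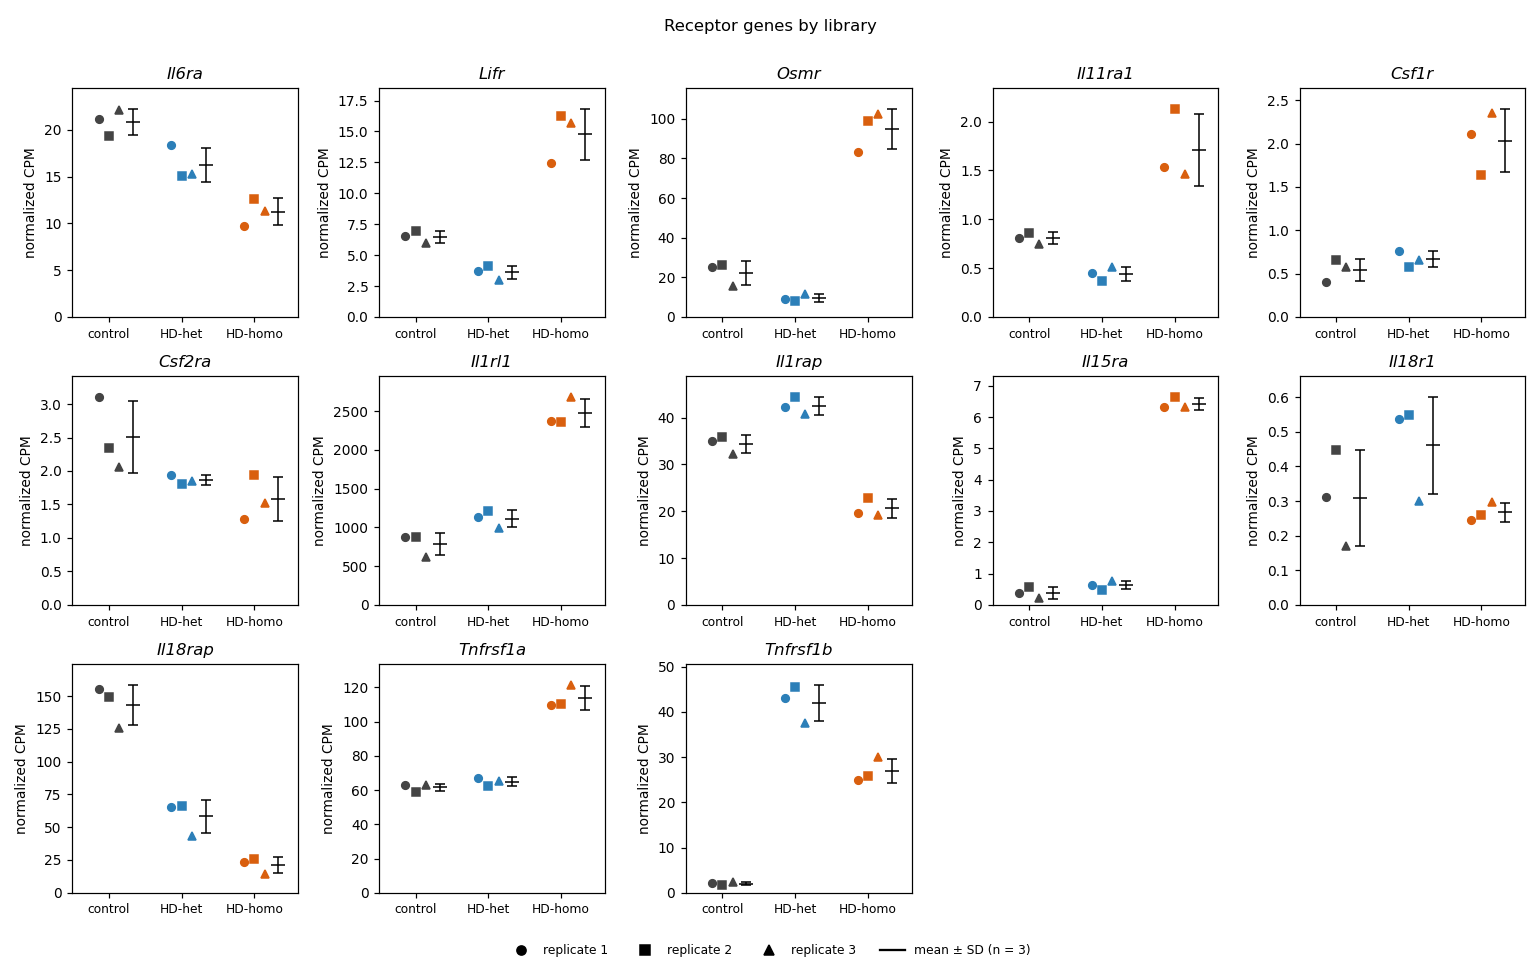
Normalized CPM of the 13 tested receptor genes in each library, on linear axes that start at 0. Symbols are replicates and bars are the mean ± SD of 3 libraries per line. Osmr, Il15ra and Il1rl1 are highest in HD-homo cells, Tnfrsf1b is highest in HD-het cells, and Il6ra and Il18rap are lowest in HD-homo cells.

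Counted together, 4 of 9 tested members were higher and 0 lower in the HD-het line against control (Lif, Il6, Il33 and Il18), where 33.8% of all 13508 tested genes were higher and 31.4% lower. In HD-homo cells 7 of 9 members were higher than in control and 0 lower (all but Il33 and Il18), where 29.6% of all genes were higher and 28.9% lower. Between HD-homo and HD-het cells 5 members were higher (Lif, Il6st, Csf1, Csf2 and Il15) and 1 was lower (Il6), where 36.0% of all genes were higher and 35.6% lower. The median log2 fold change of the members was 0.80, 1.08 and 0.46 in these comparisons, against 0.03, 0.01 and 0.00 for all tested genes. Il15 passed the filter through its reads in HD-homo cells and Il6 through those in HD-het cells. Il15 thus had to be higher in the HD-homo line and Il6 in the HD-het line, and the counts and medians over the members are descriptions. The comparisons share libraries and are not independent. Without control replicate 3 or without HD-het replicate 2, 2 members were called in HD-het against control cells. Of 16 receptor genes, 13 were tested, with 3 higher and 5 lower in HD-het cells, 8 higher and 4 lower in HD-homo cells, both against control, and 7 higher and 4 lower in HD-homo against HD-het cells.

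**Figure D3:**
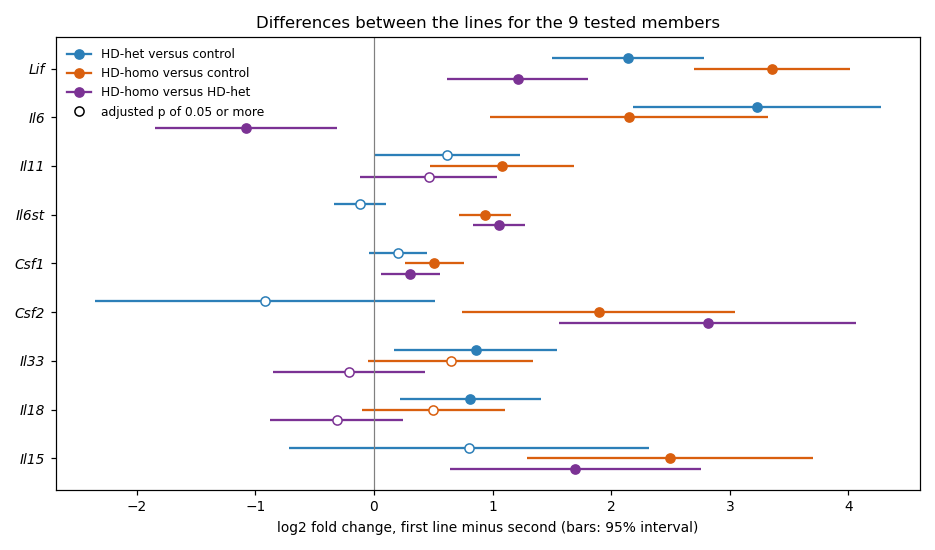
Log2 fold change of the 9 tested genes in the 3 comparisons of lines (x axis, first line minus second), with 95% intervals from edgeR as bars. Filled points have an adjusted p under 0.05. Lif is above 0 in all 3 comparisons, and Il6 is above 0 in both HD lines against control but below 0 between the HD lines.

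Because longer genes collect more reads, levels of different members were compared per kilobase of exon. In control cells Csf1 was highest, at 134 CPM per kb, followed by Il6st at 15.7, Lif at 4.54, Csf2 at 1.32, Il18 at 1.17 and Il11 at 1.06. Il33, Il15 and Il6 were at 0.306, 0.0461 and 0.0390 CPM per kb. In HD-homo cells Lif (46.5 CPM per kb) passed Il6st (30.1) to stand second to Csf1 (191). In HD-het cells Lif stood at 20.1 against 14.5 for Il6st, and Csf1 at 154. Neighbours such as Csf2, Il18 and Il11 in control cells lay close together, and their order was not tested.

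The genes whose pattern over the 9 libraries lay nearest to the 3 most abundant members were found by the root mean square difference of centred log2 CPM. For Csf1 these were Rpgrip1l (0.0803) and Noct (0.101), the latter at 104 CPM in control, 114 in HD-het and 149 in HD-homo cells. For Il6st they were Fnbp1 (0.107) and Skap2 (0.115), with Fnbp1 at 50.7, 50.5 and 103 CPM. For Lif they were Ogn (0.224), at 24.3, 131 and 245 CPM, and Ttc38 (0.233). By this measure, which is not scaled to how much a gene varies, the Lif neighbours were less close than those of Csf1 and Il6st.

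Genes that act on the members were listed by role. The antagonist Il1rn, which blocks the IL-1 receptor, had 5, 6 and 7 reads in control, 22, 28 and 23 in HD-het and 935, 1274 and 1642 in HD-homo libraries, a rise of 7.54 on the log2 scale in the HD-homo line (SE 0.31, edgeR adjusted p = 4.1e-09). Of 33 other interleukins, 5 were tested, with 4 higher and 0 lower in HD-homo cells (29.6% and 28.9% over all tested genes) and 3 higher and 1 lower in HD-het cells (33.8% and 31.4%). Il1rn passed the filter through the HD lines and not the control line, so these counts are descriptions. Il7, a lymphocyte growth factor, rose in HD-homo cells from 0.949 ± 0.182 to 4.25 ± 1.86 CPM. Il1a and Il1b had at most 4 and 2 reads in any library. Of 14 genes for the maturation and release of such factors, 8 were tested. Against control, 4 were higher and 0 lower in HD-het cells (33.8% and 31.4% over all tested genes). In HD-homo cells 2 were higher and 2 lower (29.6% and 28.9%), close to the shares over all tested genes. Rhbdf2, which brings the TNF-releasing protease ADAM17 to the cell surface, rose from 0.242 ± 0.0476 CPM in control to 5.58 ± 1.21 in HD-het and 14.8 ± 2.96 in HD-homo cells. It too passed the filter through the HD lines and not the control line, so the counts of this list are descriptions. Adam17 itself was higher in HD-het (67.0 ± 3.08) and lower in HD-homo (42.4 ± 4.03) than in the control line (57.0 ± 3.22 CPM). Gsdmd, a pore-forming protein, rose and Casp8 fell in HD-homo cells, by log2 fold changes of 0.43 and -0.18. The calls of Adam17 in HD-het cells (without control replicate 1 or 3 or HD-het replicate 1 or 2) and of Casp8 (without control replicate 1 or 2 or HD-homo replicate 2) were lost, with edgeR adjusted p up to 0.080 and 0.13. Casp1, the protease that matures IL-18, had 6, 10 and 14 reads in HD-het libraries and 0 in all others.

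All 12 listed regulators of cytokine mRNA decay were tested, with 3 higher and 5 lower in HD-het cells and 2 higher and 3 lower in HD-homo cells against control. Over all tested genes the shares were 33.8% and 31.4% in HD-het and 29.6% and 28.9% in HD-homo cells, so that these counts are no result about the list. Zfp36l1, which destabilizes AU-rich mRNAs, was at 92.3 ± 3.10 CPM in control, 56.0 ± 4.80 in HD-het and 230.2 ± 41.3 in HD-homo cells. Khsrp, another decay factor for such mRNAs, fell from 216 ± 5.67 to 152 ± 5.22 and 128 ± 9.02 CPM. Arid5a, which stabilizes the mRNA of IL-6, was higher in HD-het (42.0 ± 4.03 CPM) and lower in HD-homo cells (21.2 ± 3.61) than in control cells (30.9 ± 0.707). Rc3h2 was higher in both HD lines, with log2 fold changes of 0.44 and 0.31, the latter lost without any control library or HD-homo replicate 2 (edgeR adjusted p up to 0.10).

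Of 12 listed genes that respond to STAT3, all tested, 5 were higher and 4 lower in HD-het cells, and 5 were higher and 2 lower in HD-homo cells, against control. The shares over all tested genes were 33.8% and 31.4% in HD-het and 29.6% and 28.9% in HD-homo cells, and the counts lie near them. Socs3, the feedback inhibitor of gp130 signalling, fell in both HD lines, from 21.2 ± 0.127 CPM to 16.2 ± 0.712 (log2 fold change -0.39, edgeR adjusted p = 0.0011) and 14.9 ± 1.24 (-0.51, edgeR adjusted p = 1.9e-04). Pim1 was higher in HD-het (46.2 ± 3.09 CPM) and lower in HD-homo (19.9 ± 5.03) than in the control line (33 ± 3.51), the former lost without control replicate 2 (edgeR adjusted p = 0.053). Lcn2 had at most 1 read in control, 0 in HD-het and 11, 16 and 14 in HD-homo libraries. Serpina3n had 4, 3 and 3 reads in control, 2, 1 and 5 in HD-het and 12, 36 and 113 in HD-homo libraries. Lcn2 and Serpina3n passed the filter only through their reads in HD-homo cells, so both had to be higher there. Listed genes with more reads, chosen after their values were seen, also stood above control in that line. Stat3 was at 80.0 ± 6.47 CPM in control, 68.8 ± 2.69 in HD-het and 124 ± 4.54 in HD-homo libraries. Bcl3 was at 0.917 ± 0.315, 0.0290 ± 0.0282 and 7.12 ± 1.98 CPM, and Junb at 184 ± 7.39, 287 ± 19.8 and 332 ± 119 CPM. For Junb, HD-homo against control had an edgeR adjusted p of 0.0047.

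**Figure D4:**
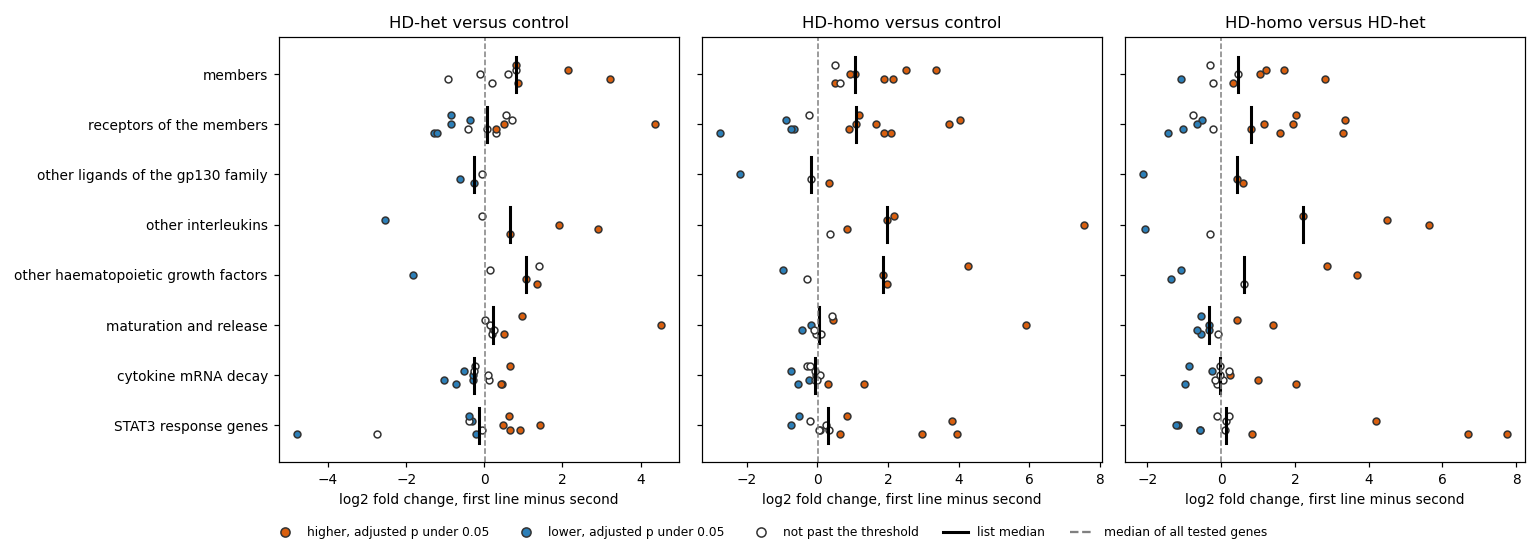
Log2 fold changes of the tested genes in 8 lists (rows) for the 3 comparisons of lines (panels). Each point is a gene, coloured where its adjusted p is under 0.05, black bars are list medians and the dashed line is the median of all 13508 tested genes. The members lie mostly to the right of the dashed line in both comparisons with control, while the STAT3 response and decay lists lie on both sides.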

How the data were processed

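Total RNA of the 9 libraries was poly(A)-selected and made into directional libraries. The authors deposited whole-number counts per gene symbol, without normalization, in 1 table of 36410 genes. The submitters' processing notes name cutadapt, Bowtie 1.1.2, RSEM 1.3.0, DESeq2, GRCm38.p5 and mm10 with no roles. If RSEM made the counts, they are rounded estimates, in which reads shared by similar genes are split. Whether strand was used in counting is not given in the sources used here. Depth was 29507665 to 41197931 counts per library.

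The software was edgeR 4.0.16 under R 4.3.3. Its function filterByExpr (minimum count 10) left 13508 genes, libraries were scaled by TMM, and 1 quasi-likelihood model over all 9 libraries compared the lines in 3 pairs. The test was two-sided, with Benjamini-Hochberg adjustment over all tested genes and a threshold of 0.05. The SE is the log2 fold change divided by the square root of the F statistic. Counting intervals are exact at 95% and cover counting error only. With 3 libraries against 3, an exact permutation test cannot go below 0.1. Levels per kilobase used the union of GENCODE exons on GRCm38. The script was tested on simulated data. Replicates differed by more than sampling noise in every pair, so all 9 libraries were kept.

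The members and lists were chosen with earlier results of these data known. Every member was named, as was every tested receptor or gp130 ligand, except 1 gene that is not reported here. From each other list, the 2 highest and 2 lowest log2 fold changes past the threshold in HD-homo against control cells were named, with markers at 0 or highest, and the 2 nearest patterns of the 3 most abundant members among genes of at least 1 CPM. A gene outside this rule is said to be chosen after its values were seen, or is given by its counts only. Alternatives were DESeq2's size factors, library totals, the Wald test of DESeq2 1.42.0, no filter, a stricter filter, only the 2 lines compared, a replicate block, a prior count of 2 and each library left out.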

Additional observations from a re-analysis of the deposited data

How the results depend on the processing

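Each comparison was recomputed under 17 alternatives. One of them, the prior count of 2, changes the size of log2 fold changes but not their p-values. It could not change a call, and its values count as kept in the tallies below. Of 457 recomputed log2 fold changes of the members, 431 kept their direction and their side of the threshold, 14 lost the call and 11 gained it. Lif, Il6st, Csf2 and Il15 kept every call, as did Il11 and Csf1 in HD-homo against control and Il6 in HD-het against control. For Il15 in the HD-homo line and Il6 in the HD-het line, the filter itself required reads there, so each had to be higher. Il6 in HD-homo against control kept its call in the 16 alternatives that tested it. With only those 2 lines compared, it did not pass the filter, nor did Il15 in HD-het against control. Members called ranged from 2 to 6 in HD-het against control (4 as reported), from 6 to 8 in HD-homo against control (7) and from 4 to 7 between the HD lines (6). Leaving out 1 library at a time gave 2 to 5, 7 to 8 and 4 to 7. The value of 2 came without control replicate 3 or HD-het replicate 2, which ended the calls of Il33 and Il18. The call of Csf1 between the HD lines was lost in 5 alternatives, with edgeR adjusted p up to 0.10. Il33 between the HD lines (-0.21) ranged from -0.63 to 0.052 when 1 library was left out, the latter without HD-homo replicate 2.

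Of 1934 recomputed values of other named genes, 1873 kept direction and side and 10 turned. None that turned was past the threshold as reported, and the cause was not tested. The log2 fold change of Gsdmd, HD-het versus control, was 0.01 as reported and -0.00213 with library totals only. With 1 library left out, values in that comparison ran from -0.00902 to 0.049 for Gsdmd, from -0.20 to 0.066 for Il7, from -0.12 to 0.025 for Ctf1 and from -0.075 to 0.33 for Thpo. Likewise, Il18r1 in HD-homo against control ran from -0.50 to 0.14.

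Same-numbered libraries of different lines deviated together only weakly, with correlations over genes of -0.0053 to 0.145, not all over 0.1. Whether they share more than a number is not given by the labels and was not tested. With a replicate block, 4, 7 and 6 members were called in the 3 comparisons, as without it. Among the other named genes it ended the call of Clcf1 in HD-het against control and added that of Csf3 between the HD lines (edgeR adjusted p = 0.053 and 0.044). Over all genes the block gave 9160, 8372 and 9938 calls against 8797, 7910 and 9666, and 8 of 9 libraries correlated best with their own number.

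Depth limits Tnf, Il6 and Il15, for which counts of 0 to 34 leave wide intervals.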
